A study of Rattus norvegicus with 8 samples.

Results

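The hypothalamus is built around neurons that release peptides, and every such peptide is cut out of a larger precursor inside a dense-core granule. This account follows 10 genes that make those granules and carry out the cutting: the granins Chga, Chgb, Scg2 and Scg3, the convertase chaperone Scg5, the processing enzymes Pcsk1, Pcsk2, Cpe and Pam, and the granin-like precursor Vgf. They were chosen by name, as the array probes whose gene name in the scanner files is one of these symbols. Each symbol had 1 probe, so the set is 10 probes of the 30367 on the array that are not controls, and 10 of 26269 gene names. All 10 were well above background on all 8 arrays, and so all 10 were among the 16574 genes tested.

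The study asked, by its title, about dioxin's effect on messenger RNAs in the maternal hypothalamus. RNA came from whole hypothalami of 4 lactating Wistar dams given the label TCDD and 4 lactating Wistar dams given the label control, all taken on postpartum day 7. TCDD is the prototype dioxin, a persistent pollutant that binds the aryl hydrocarbon receptor (AhR), a transcription factor. The sources used here name no dose, route or time of exposure, nor what the control dams received. The labels number the dams 1 to 4 within a group, each with an array of its own in a single colour, and do not say more about how the animals were housed or drawn.

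Granins are acidic proteins that condense in the trans-Golgi network together with prohormones and so help to form the granule. The prohormone convertases, encoded by Pcsk1 and Pcsk2, then cut precursors after pairs of basic residues. Carboxypeptidase E removes the basic residues that the cut leaves behind, and peptidylglycine alpha-amidating monooxygenase, the product of Pam, gives the peptide its C-terminal amide. In the hypothalamus this route serves oxytocin, vasopressin, thyrotropin-releasing hormone, the products of Pomc and many others.

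The probes are 60 bases long, and what each reads is the transcript piece it matches. In 4 of the 10 genes the probe contains AATAAA, the polyadenylation hexamer, on the probe strand as printed, against 8.39% of all 30367 probes. These 4 are shown because they include the 2 genes with the highest differences between the groups, each as the 30 bases around the hexamer, 5′ to 3′, with the hexamer in capitals.
Chga: aatttattgaaggaagAATAAAcctgcttt
Chgb: tgaaacacaaacAATAAAagatttacctga
Scg5: tctgctgcttcttAATAAAtgtatgtgcaa
Vgf: atagttttgctaagaAATAAAagtgactat
On the rat build rn4, as given in the scanner files, the whole Chga probe lies at chr6:126832496-126832555 and the Chgb probe at chr3:120584813-120584872, both on the plus strand. The Scg5 probe lies at chr3:99629194-99629253 on the minus strand and the Vgf probe at chr12:20906265-20906324 on the plus strand. The other probes are those of Scg2 at chr9:78762735-78762794 and Scg3 at chr8:80496358-80496417, both on the minus strand. On the plus strand are the probes of Pcsk1 at chr2:1969912-1969971, Pcsk2 at chr3:132255540-132255599, Cpe at chr16:26750109-26750168 and Pam at chr9:96977460-96977519. Without an annotation of this build, the exon or UTR that each probe falls in is left out, and an array probe cannot show which other isoforms of these genes were present.

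Upstream sequence was matched for 8 of the 10 genes from RefSeq on the build GRCr8, as windows of 250 bases before the gene start and 50 after it. Chga and Pcsk1 are the genes without a match. The cAMP response element TGACGTCA, a site known for activity-dependent transcription of peptide genes, was found in 2 of the 8 windows, those of Scg2 and Vgf, against 1.83% of 33469 windows (both strands searched). Counted from the gene start, it begins at -123 in Scg2 and at -90 in Vgf. The stretches around it are printed with the element in capitals, Scg2 at chr9:88256927-88257026 and Vgf at chr12:25277051-25277150, both on the minus strand.
Scg2: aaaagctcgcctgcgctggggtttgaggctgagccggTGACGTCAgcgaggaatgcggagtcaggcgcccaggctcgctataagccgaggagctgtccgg
Vgf: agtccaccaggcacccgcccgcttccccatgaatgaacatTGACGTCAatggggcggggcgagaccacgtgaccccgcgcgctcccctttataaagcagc
Its shorter core TGACG, which lies within the full element too, was in 7 of the 8 windows, against 21.2% of all windows. GCGTG, the core of the element that AhR and its partner bind, was in 3 of the 8, those of Scg3, Cpe and Vgf, against 29.7% of all windows. None of the 10 genes passed the test given next, with or without a match, so that test cannot bear on these sites. A match is a run of letters and not a measured binding site.

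No gene of the 10 passed the test between TCDD and control dams, which was limma on log2 signal with a Benjamini-Hochberg adjusted p under 0.05 over all 16574 genes. Of all genes tested, 4 passed, or 0.0241%. At an unadjusted limma p under 0.05 the count was 1 of 10, Chga, against 10.8% of all genes. Differences were positive for 5 genes and negative for 5, and the median over the 10 genes was -0.0051 on the log2 scale, against 0.0042 over all tested genes. The median size of the difference, without its sign, was 0.06 for the 10 genes and 0.07 for all genes. The lowest difference was -0.09, for Pam, and the highest was 0.31, for Chga.

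The groups were separate for Chga alone. Its 4 TCDD arrays all lay above its 4 control arrays, a pattern that 5.33% of all tested genes showed in this direction and 1.72% showed in the other. None of the 10 genes was lower on all TCDD arrays than on all control arrays. Each group of dams lay on its own slide, scanned on its own, so slide, scan and exposure cannot be told apart in any of these differences. In RNA from whole tissue, fewer cells of a type and less RNA per cell cannot be told apart either.

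**Figure D1:**
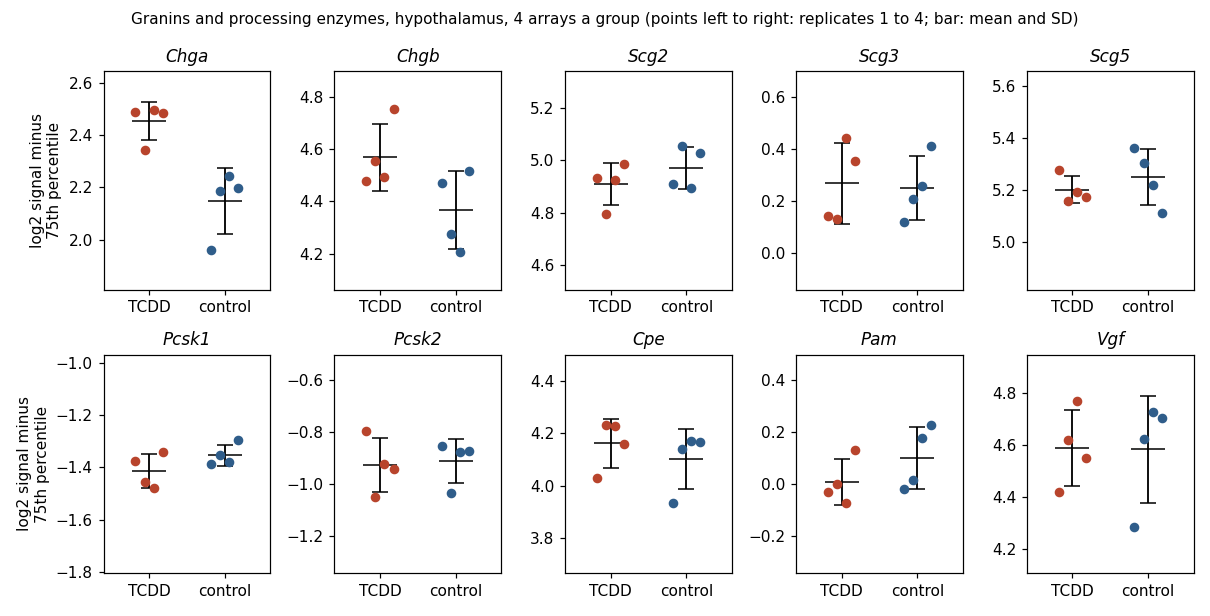
Log2 signal minus the array's 75th percentile for each of the 10 genes, with TCDD arrays (red) left of control arrays (blue), 4 each, and bars for the mean and SD. The TCDD points lie wholly above the control points only in the Chga panel; the y axes differ in position but all span the same range.

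Chga encodes chromogranin A, the founding granin and a driver of granule formation. Its log2 signal, relative to the 75th percentile of the array's spots, was 2.49, 2.35, 2.50 and 2.49 on the arrays of TCDD dams 1 to 4. On the arrays of control dams 1 to 4 it was 1.96, 2.19, 2.25 and 2.20. TCDD arrays 1, 3 and 4 nearly coincided and array 2 lay lower, while control array 1 stood below the other control arrays. The means were 2.45 ± 0.073 in TCDD dams and 2.15 ± 0.13 in control dams (SD, n = 4 each), a log2 difference of 0.31 with a standard error of 0.07. That is 1.24-fold, and the 95% interval of the log2 difference was 0.14 to 0.48. The limma p was 0.00315, which ranked 277 of 16574 genes, and the limma adjusted p was 0.188. The exact permutation test over the 70 ways to assign the arrays gave p = 0.0286 (2-sided), the smallest this design allows. Without control array 1 the difference was 0.24 (limma adjusted p = 0.273), and without TCDD array 2 it was 0.34 (limma adjusted p = 0.222).

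Chromogranin B, from Chgb, is the close partner of chromogranin A in the granule. Its log2 signals were 4.48, 4.56, 4.49 and 4.76 in TCDD dams, against 4.47, 4.28, 4.21 and 4.52 in control dams. Control array 4 reached into the TCDD range and control array 1 lay just below it, and TCDD array 4 was the highest of all 8. The difference was 0.20 ± 0.09 (SE), with a 95% interval of -0.01 to 0.42 and an limma adjusted p of 0.492. Over the 8 arrays Chga and Chgb had a Pearson r of 0.42 and a Spearman rho of 0.43 (exact permutation p = 0.312 and 0.299). With each group's mean taken out, r was -0.35 (exact permutation p = 0.495).

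Scg2 encodes secretogranin II, the precursor of the peptide secretoneurin. It read 4.93, 4.79, 4.92 and 4.99 in TCDD dams, against 4.91, 5.05, 4.89 and 5.03 in control dams. The groups overlapped along most of their length, with TCDD array 2 the lowest. The difference was -0.06 ± 0.06 (SE; limma adjusted p = 0.806).

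Scg3 encodes secretogranin III, which binds chromogranin A and ties it to the granule membrane. It read 0.14, 0.13, 0.44 and 0.35 in TCDD dams, against 0.12, 0.21, 0.26 and 0.41 in control dams. The arrays spread over 0.31 in TCDD dams and 0.29 in control dams, far more than the difference of 0.02 between the means (SE 0.09, limma adjusted p = 0.971). Its sign changed when single arrays were left out, so no direction is given.

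Scg5 encodes a small granin-like chaperone that binds the convertase made from Pcsk2 and keeps it from acting too early. It read 5.28, 5.16, 5.19 and 5.17 in TCDD dams, against 5.36, 5.30, 5.22 and 5.11 in control dams. Control dams covered 0.25 and TCDD dams 0.12, with the TCDD values inside the control range. The difference was -0.05 ± 0.07 (SE; limma adjusted p = 0.862).

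**Figure D2:**
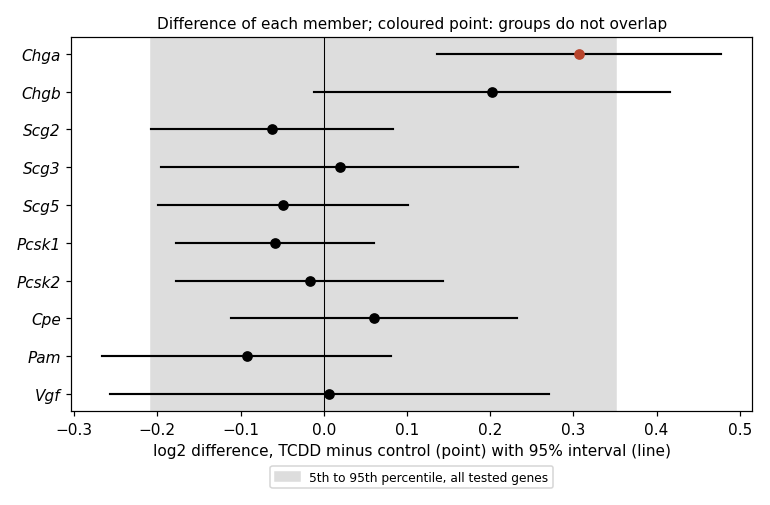
Log2 difference of TCDD minus control arrays (points) with 95% limma intervals (lines) for the 10 genes, 4 arrays a group; the grey band runs from the 5th to the 95th percentile of the differences of all tested genes, -0.21 to 0.35. All 10 points lie inside the band, and the interval of Chga (coloured) is the one that does not cross 0.

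The convertases gave the narrowest readings for Pcsk1, whose enzyme makes the first cuts in precursors such as that of Pomc. Pcsk1 read -1.37, -1.46, -1.48 and -1.34 in TCDD dams, against -1.39, -1.35, -1.38 and -1.29 in control dams. TCDD arrays 2 and 3 lay below every control array and TCDD arrays 1 and 4 did not. The difference was -0.06 ± 0.05 (SE), with a 95% interval of -0.18 to 0.06, and only 8.03% of tested genes had a smaller standard error. The limma adjusted p was 0.768. Its probe was above background throughout at processed intensities of 311 to 412 in TCDD dams and 289 to 428 in control dams.

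Pcsk2, whose enzyme makes the later cuts, read -0.79, -1.05, -0.92 and -0.94 in TCDD dams. In control dams it read -0.85, -1.03, -0.88 and -0.87. Array 2 was the lowest in each group. The difference was -0.02 ± 0.07 (SE; limma adjusted p = 0.967), and it took the other sign with array weights (0.0037) and when some single arrays were left out.

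Cpe, for carboxypeptidase E, read 4.03, 4.23, 4.23 and 4.16 in TCDD dams, against 3.93, 4.14, 4.17 and 4.17 in control dams. Array 1 was the lowest in each group. The difference was 0.06 ± 0.07 (SE), with a 95% interval of -0.11 to 0.23 and an limma adjusted p of 0.849.

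Pam, for the amidating enzyme that oxytocin, vasopressin and thyrotropin-releasing hormone all need for their final form, had the lowest difference. It read -0.03, -0.00046, -0.07 and 0.13 in TCDD dams, against -0.02, 0.01, 0.18 and 0.23 in control dams. Control arrays 3 and 4 lay above every TCDD array, and the other control arrays lay among them. The difference was -0.09 ± 0.08 (SE), with a 95% interval of -0.27 to 0.08 and an limma adjusted p of 0.743.

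Vgf encodes a neurotrophin-inducible precursor that is stored with the granins and cut into several neuropeptides. It read 4.42, 4.62, 4.77 and 4.55 in TCDD dams, against 4.28, 4.62, 4.73 and 4.70 in control dams. It had the widest spread of the 10 genes in both groups, 0.35 in TCDD dams and 0.44 in control dams, with array 1 lowest in each. The means were 4.59 ± 0.15 in TCDD dams and 4.58 ± 0.20 in control dams (SD, n = 4 each), and the limma adjusted p was 0.991. The sign of its difference changed with the scaling, being 0.0067 here and -0.03 after quantile normalization, so no direction is given.

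The number of arrays limits the precision of each difference. Over the 10 genes the 95% limits of the fold of TCDD over control ran from 0.832, for Pam, to 1.39, for Chga. A p above the threshold does not show that a gene was the same in both groups. On simulated arrays with the spread of the real ones, 56.7% of genes changed by 0.5 on the log2 scale were called, and 88.1% of those changed by 1. That simulation held 67 genes changed by 0.5, 67 by 1 and 66 by 2. The adjustment is stricter when fewer genes change, so these shares may be too high here, where 4 genes passed.

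The 10 genes did not move as a block from array to array. Control array 1 was the lowest of all 8 for 4 of them (Chga, Scg3, Cpe and Vgf), and TCDD array 3 was the highest for 3. On control array 4, 9 of the 10 genes lay above their control mean, Scg5 being the exception at -0.14. Median deviations from the control mean were -0.03, -0.09, 0.06 and 0.02 on the arrays of TCDD dams 1 to 4, and -0.09, 0.02, 0.02 and 0.06 on those of control dams 1 to 4. TCDD array 2 and control array 1 thus had the lowest medians. Over all tested genes the same medians lay between -0.01 and 0.02.

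**Figure D3:**
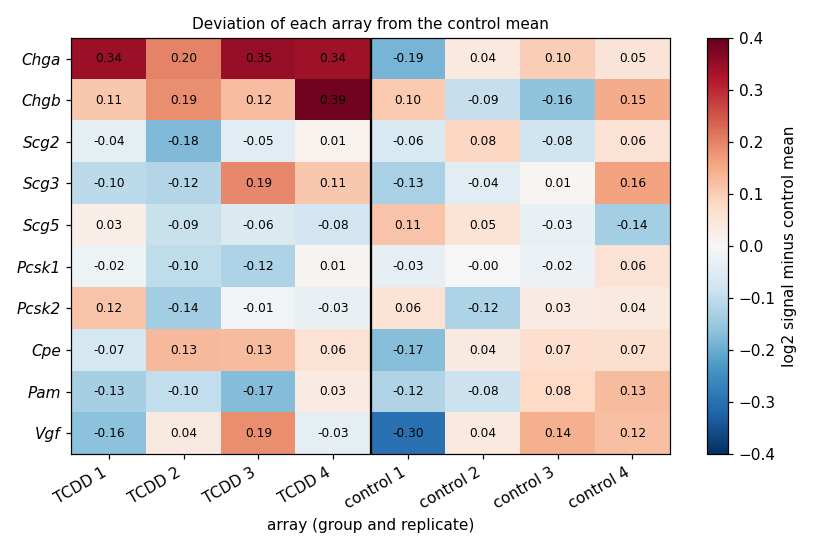
Heat map of each array's log2 signal minus the gene's control mean, with genes in rows and arrays in columns, TCDD dams 1 to 4 left of control dams 1 to 4. Red cells are above the control mean and blue cells below it; Chga and Chgb are above it on all 4 TCDD arrays, and control dam 1 is the bluest control column, down to -0.30 for Vgf.

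Arrays 1 of both groups sat at the first position of their slides and had the highest median coefficient of variation of repeated probes, 15.3% in TCDD dam 1 and 18.1% in control dam 1. The other arrays had 9.94% to 13.2%. Without both of these arrays, a comparison chosen after seeing the data, Chga differed by 0.23 (limma adjusted p = 0.371) and Chgb by 0.27 (limma adjusted p = 0.551). Vgf then turned to -0.04.

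Of the 45 pairs of genes, 25 had a positive Pearson r over the 8 arrays, with a median r of 0.05. No pair passed a Benjamini-Hochberg adjustment over the 45 in the exact permutation test (lowest adjusted p 0.182 for Pearson's r and 0.432 for Spearman's rho). Cpe and Vgf were the most alike, with a Pearson r of 0.91 (exact permutation p = 0.00404) and a Spearman rho of 0.71 (exact permutation p = 0.0576). Without the 2 arrays farthest from the Cpe median, r was 0.37 over the narrower range of Cpe that this leaves. Those left out were the first-position arrays, of TCDD dam 1 and control dam 1, on which Vgf was lowest too. Scg5 and Cpe ran most strongly against each other, with a Pearson r of -0.80 (exact permutation p = 0.0155, adjusted 0.349) and a Spearman rho of -0.71 (exact permutation p = 0.0576). With each array taken as its deviation from its own group's mean, a comparison chosen after seeing the data, r was 0.95 for Cpe and Vgf and -0.78 for Scg5 and Cpe. The exact permutation p over the 576 orders within groups was 0.00521 for the first pair and 0.0295 for the second, and adjusted over the 45 pairs 0.234 and 0.547. Within groups 30 of the 45 pairs had a positive r.

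Other genes of the pathway, in 3 lists named by function, set the 10 genes in context. Of 17 names of other processing enzymes and their inhibitor, 15 were on the array and 13 were tested, and 0 passed the threshold. Ctsl, not on the array, is another symbol of Ctsl1, which was tested. None of the 13 had an unadjusted limma p under 0.05, against 10.8% of all genes. The difference was positive for 9 and negative for 4, with a median of 0.02 and a range of -0.62 to 0.26 on the log2 scale. That split depended on the samples, since without control array 1 it was 5 positive and 8 negative.

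Furin, the convertase of the constitutive secretory route, differed by 0.13 (SE 0.08, limma adjusted p = 0.682). Of its relatives, Pcsk4 had the lowest adjusted p of the list, and is named after its values were seen (difference 0.17, SE 0.09, limma adjusted p = 0.557). Pcsk5 differed by 0.0011, Pcsk6 by 0.03 and Pcsk7 by 0.26 (limma adjusted p = 0.998, 0.907 and 0.728). Pcsk1n, whose product proSAAS inhibits the Pcsk1 convertase, read 4.42, 4.38, 4.50 and 4.36 in TCDD dams, against 3.66, 4.54, 4.42 and 4.48 in control dams. Control array 1 was again low, and the other control arrays lay among or just above the TCDD arrays (difference 0.14, SE 0.18, limma adjusted p = 0.860). Cpd, a carboxypeptidase of the trans-Golgi network, and Rnpep, an aminopeptidase, each differed by -0.07 (limma adjusted p = 0.826 for Cpd and 0.795 for Rnpep). Ctsl1, for the lysosomal protease cathepsin L, which has also been found in granules, differed by 0.02 (limma adjusted p = 0.967).

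The second list holds 20 names of granule membrane and release proteins, of which 19 were on the array and tested. None passed the threshold and 2 had an unadjusted limma p under 0.05, Ptprn and Slc18a2, both lower in TCDD dams. That is 2 of 19, against 10.8% of all genes. Of the 19 differences 6 were positive and 13 were negative, with a median of -0.04. The median was below 0 under all 21 alternative settings, from -0.07 to -0.01. These settings reuse the same arrays, and several cannot change the median. With array weights the split was 9 positive and 10 negative. Ptprn, a granule membrane protein related to tyrosine phosphatases, read 2.03, 1.98, 1.98 and 1.98 in TCDD dams, against 2.08, 2.04, 2.15 and 2.17 in control dams. All TCDD arrays lay below all control arrays, as in 1.72% of all tested genes, but the step was small (difference -0.12, SE 0.05, limma adjusted p = 0.446). Its paralogue Ptprn2 overlapped, at 4.78, 4.79, 4.84 and 4.87 in TCDD dams and 5.09, 4.96, 4.91 and 4.77 in control dams (difference -0.11, SE 0.07, limma adjusted p = 0.667).

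Slc18a2 encodes the vesicular monoamine transporter, which loads dopamine and other amines rather than peptides, and it is named here after its values were seen. It read 0.39, 0.47, 0.28 and 0.36 in TCDD dams, against 0.50, 0.70, 0.90 and 0.71 in control dams. The groups were separate, as in 1.72% of all tested genes in this direction. Control array 1 was the nearest to the TCDD arrays (difference -0.33, SE 0.09, limma adjusted p = 0.220). The granule priming factors Cadps and Cadps2 differed by -0.04 and -0.03 (limma adjusted p = 0.852 and 0.943), and Syt4, a synaptotagmin of peptide granules, by 0.06 (limma adjusted p = 0.789).

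The third list, of prohormone substrates, holds precursors of secreted peptides, with 30 of 35 names tested. Some untested names, such as Cart and Penk1, are other symbols of genes tested as Cartpt and Penk. None of the 30 passed the threshold and 2 had an unadjusted limma p under 0.05, Sst and Trh, both higher in TCDD dams. That is 2 of 30, against 10.8% of all genes, and Sst is named here after its values were seen. Sst differed by 0.43 (SE 0.12, limma adjusted p = 0.237). Its groups overlapped, with TCDD array 1 at 3.75 and control array 3 at 3.79. Over the list the difference was positive for 16 and negative for 14, with a median of 0.02. The 30 differences ranged from -0.55, for Avp, to 0.92, for Ucn3, against -0.09 to 0.31 for the 10 genes. Ucn3, named after its values were seen, had low and scattered signals. Its means were -2.96 in TCDD dams and -3.88 in control dams (SE of the difference 0.45, limma adjusted p = 0.521). The standard errors of the 10 genes were 0.05 to 0.11, so the wider range does not show that the substrates changed more. Oxt differed by -0.22 (SE 0.16, limma adjusted p = 0.715) and Avp by -0.55 (SE 0.30, limma adjusted p = 0.591). Pomc differed by 0.03 (SE 0.38, limma adjusted p = 0.989) and Crh by 0.18 (SE 0.25, limma adjusted p = 0.869). Trh read 1.24, 0.79, 1.33 and 1.11 in TCDD dams, against 0.74, 0.88, 0.98 and 0.74 in control dams, so that TCDD array 2 lay inside the control range (difference 0.29, SE 0.12, limma adjusted p = 0.444).

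**Figure D4:**
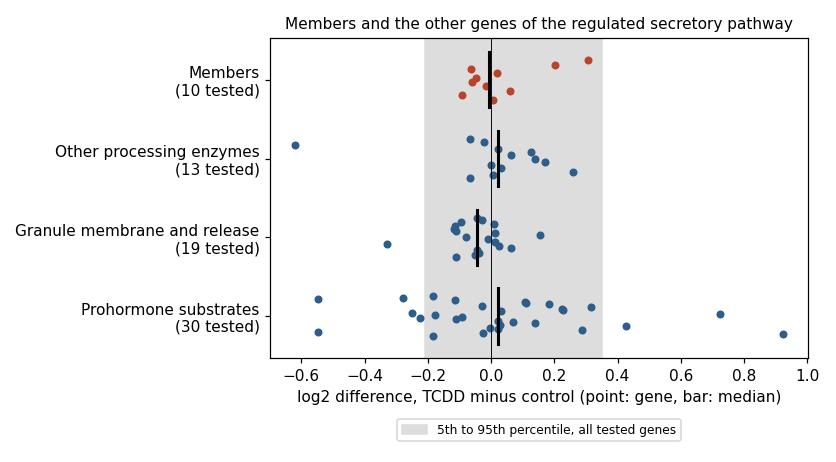
Log2 difference of TCDD minus control arrays for the 10 genes (red) and for the tested genes of the other processing enzymes (13), granule membrane and release (19) and prohormone substrates (30), with black bars at the medians of -0.0051, 0.02, -0.04 and 0.02; the grey band runs from the 5th to the 95th percentile of all tested genes. The substrates spread most, from -0.55 to 0.92 (the highest being Ucn3, SE 0.45), and all 10 red points lie inside the band.

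The make-up of the dissected tissue bears on genes that endocrine cells also express. Markers of the hypothalamus were above background for 13 of the 14 names on the array, with 7 differences positive and 6 negative. Their summed levels, in units of the 75th percentile, were 202 to 280 in TCDD dams and 230 to 338 in control dams. Most of each sum came from Pmch, Oxt and Avp, whose log2 differences were 0.07, -0.22 and -0.55. Neuron markers overlapped between the groups, at summed levels of 71.8 to 80.0 in TCDD dams and 71.3 to 80.9 in control dams, with 3 of 10 differences positive. Of 12 markers of the pituitary, which is rich in chromogranin A, 6 were tested, with 4 differences positive and 2 negative. The summed levels of these 6 ranged from 1.41 to 43.5 in TCDD dams and from 1.07 to 35.2 in control dams. Prl and Gh1 were not tested and are left out of these sums. On the highest array of each group most of the sum was Cga. Fshb, Pou1f1, Ghrhr and Gnrhr were not above background on any array.

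Pituitary hormone transcripts differed from array to array. Prl, for prolactin, was above background on 3 TCDD arrays (dams 2, 3 and 4, at 1.44, 1.91 and 1.91) and on 1 control array (dam 2, at -0.25). Gh1, for growth hormone, was above background on the same arrays. Cga and Tshb, also on the pituitary list, followed a different pattern. Cga read 0.93, 5.25, -2.42 and 4.63 in TCDD dams 1 to 4, against 0.77, -4.14, 1.04 and 4.93 in control dams 1 to 4. Tshb read -1.9, 2.0, -3.1 and 1.7, against -2.1, -7.4, -3.4 and 1.7. The markers thus differed in which arrays they were high on. On the arrays where Prl was above background, Chga read 2.35, 2.50 and 2.49 in TCDD dams 2, 3 and 4 and 2.19 in control dam 2. On the others, Chga read 2.49 in TCDD dam 1 and 1.96, 2.25 and 2.20 in control dams 1, 3 and 4. Pitx1, a pituitary transcription factor, was higher on all TCDD arrays than on all control arrays, as were 5.33% of all tested genes (difference 0.24, SE 0.07, limma adjusted p = 0.282). The part of pituitary tissue in the Chga difference was not tested. Of the markers of chromaffin and other endocrine cells, 1 of 5 was above background, Pnmt (difference 0.12, SE 0.11, limma adjusted p = 0.767), while Dbh, Ins1, Ins2 and Gcg were not above background on any array.

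Glial and blood markers complete the picture. Astrocyte markers had 3 positive and 3 negative differences, with summed levels of 54.0 to 60.9 in TCDD dams and 50.8 to 60.8 in control dams. Oligodendrocyte markers had 1 positive and 5 negative differences (summed 93.9 to 124 in TCDD dams and 99.7 to 121 in control dams). All 5 red blood cell markers had positive differences, with a median of 0.90, and 4 of them had an unadjusted limma p under 0.05, against 10.8% of all genes. That count was 0 without TCDD array 2, TCDD array 4, control array 1 or control array 2, and 0 in the exact permutation test, while all 5 differences stayed positive under the 21 alternative settings. Their summed levels were 187 to 342 in TCDD dams and 109 to 290 in control dams. None of the markers tested passed the threshold, and their part in the differences of the 10 genes was not tested.

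**Figure D5:**
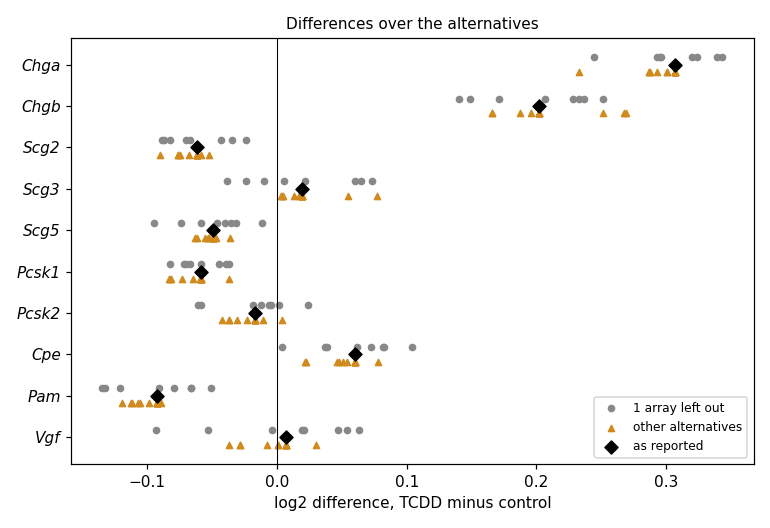
Log2 difference of TCDD minus control for each of the 10 genes as reported (diamonds), with 1 array left out at a time (grey circles) and under the other alternative settings (orange triangles). Chga stays between 0.23 and 0.34 and Chgb between 0.14 and 0.27, while Scg3, Pcsk2 and Vgf have points on both sides of 0.

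Across 21 alternative settings none of the 10 genes passed the threshold, the lowest limma adjusted p being 0.112, for Chga with array weights. The limma adjusted p of Chga ranged up to 0.427, without TCDD array 3.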

How the data were processed

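Hypothalamic RNA of 4 TCDD and 4 control dams was measured on 1-colour Agilent Whole Rat Genome arrays. Per the file headers, the authors read the arrays with version 10.7.1.1 of Agilent Feature Extraction, and the processed intensity of a spot is linear, with background subtracted. The authors' value table, also deposited, holds intensities whose columns share a median of 65.1, and on the log2 scale it followed the scanner files with correlations of 0.999 or more. Its scale is linear, and its centring is not given in the sources used here.

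The log2 processed intensity minus log2 of the array's 75th percentile over the 42877 spots that are not controls was used. Outlier-flagged spots were left out and spots of a probe averaged. A probe was tested if well above background on all 4 arrays of a group, and a gene was read by its tested probe of highest mean signal. The fit was limma 3.58.1 (lmFit, eBayes) in R 4.3.3 over 16574 genes, 2-sided, adjusted by Benjamini-Hochberg, with 0.05 as the threshold. Sequences and figures used Python 3.11.15 and matplotlib 3.10.9. Array by array, 61.7% to 66.7% of probes were well above background, the 75th percentile was 756 to 1077, no spot was saturated, and arrays correlated at 0.988 to 0.996.

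The fit was tested on simulated data of 16571 genes, with 6 false calls. The 10 genes and the lists were chosen with earlier results of these data known. Named besides the 10 were genes fixed by identity and any list gene past the threshold, of which there was none. Slc18a2, Sst, Ucn3, Pcsk4 and single markers were named after their values were seen. Names absent from the array's gene column, such as Qpct and Hid1, were not analysed here. Where nothing says how the dams were drawn, p-values set the difference between the groups against the spread among these samples only. Alternatives changed the background correction, scaling, filter, probe rule, variance model and arrays used.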

Additional observations from a re-analysis of the deposited data

Results flagged for a closer look

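Of the 20 sets of 4 arrays (10 genes in each of the 2 groups), 3 held an array that stood apart, its gap to the nearest other array divided by the set's range being above 0.829, Dixon's critical value for 4. Chance alone gives about 1 such set in 20. Chga was lowest on the array of TCDD dam 2, with a ratio of 0.940 (2.35, against 2.49 to 2.50 in the other TCDD dams). Pcsk2 was lowest on the array of control dam 2, with a ratio of 0.867 (-1.03, against -0.88 to -0.85 in the other control dams). Cpe was lowest on the array of control dam 1, with a ratio of 0.870 (3.93, against 4.14 to 4.17 in the other control dams). All 3 were single readings of 1 spot that was not flagged by the scanner software, and their causes were not tested.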

How the results depend on the processing

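None of the 10 genes passed the threshold under any alternative run, as genes or as probes, and 1 or 2 had an unadjusted limma p under 0.05. The exact permutation test, among these runs, could pass no gene at all. Of 210 alternative values, 197 kept their direction. The 13 that did not belonged to the genes nearest 0. Leaving out single arrays gave -0.039 to 0.073 for Scg3, -0.061 to 0.024 for Pcsk2 and -0.093 to 0.063 for Vgf. Array weights gave 0.0037 for Pcsk2. Vgf was -0.029 after quantile normalization, -0.028 in the authors' table, -0.0076 with the 75th percentile over probes and -0.037 without both position 1 arrays, the last 2 chosen after seeing the data. Genes passing among all, 4 as reported, numbered 20 with normexp, 27 with median centring, 34 with trend and robust eBayes, 67 with array weights and 2 without both position 1 arrays. They numbered 0 without a filter (2032 at an unadjusted limma p under 0.05) and 0 in limma with the replicate block (2139 unadjusted), and 0 to 7 when single arrays were left out. The replicate block changed no call among the 10 genes (Chga 0.31, limma adjusted p = 0.209). Of the 4 same-numbered pairs of dams, 2 had deviations correlated over 0.1 (range -0.05 to 0.23), so the numbers were not used as pairs. Among the 8 arrays 3 correlated best with the array of their own number. The causes were not tested. Scaling moved the median of all genes between -0.02 and 0.0042. With 4 arrays a group, the standard errors of the 10 differences were 0.05 to 0.11. Each gene rests on 1 probe.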
